A study of Rattus norvegicus with 16 samples.

Results

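The ErbB signalling system of the rat sciatic nerve was followed through 10 genes out of 31038, chosen by name: the ligands Nrg1, Btc, Hbegf, Areg, Ereg and Tgfa and the receptors Egfr, Erbb2, Erbb3 and Erbb4. All 10 are listed in the deposited tables. RNA was sequenced from Schwann cells purified acutely from the nerve and from the whole nerve, in 16 libraries, with 2 libraries in each of 8 groups. In each tissue the groups were uncrushed nerves and the segment distal to a crush after 3, 5 and 7 days. The labels give postnatal day 18 for every sample. The study's methods give this as the age at the crush, so that animals of the later days were older than those of the uncrushed group. No genotype, strain or drug distinguishes the groups in the labels, and at least 10 nerves were pooled per sample. By the study's methods the crush was done under isoflurane with carprofen given for pain, and uncrushed animals had no sham operation. Surgery and these drugs therefore cannot be told apart from the crush in comparisons with uncrushed nerves. The Schwann cells were released by enzymes, freed of cells that bear CD45 or Thy1 and then caught by the surface antigen O4, whereas whole nerves were not dissociated. The labels do not tie replicates to separate animals, so that the tests measure the spread between pooled samples, which may be technical.

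ErbB receptors are tyrosine kinases that pair when an EGF-like ligand binds. Neuregulin 1, made above all by axons, binds ErbB3 and ErbB4. ErbB3 has little kinase activity of its own and signals by pairing with ErbB2, which binds no known ligand, and this pair is the Schwann cell's receptor for survival, migration and myelination. Amphiregulin and TGF-alpha bind EGFR, and betacellulin, HB-EGF and epiregulin bind EGFR and ErbB4.

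Library totals ran from 10555067 to 27562637 expected counts, the read numbers that RSEM assigns to genes. Levels are given as FPKM, fragments scaled to transcript length and to the library's total, and changes as log2 fold changes ± standard error from edgeR's quasi-likelihood test on counts, called at a Benjamini-Hochberg adjusted p under 0.05 over all genes tested. With 2 libraries per group no level on its own can give more than a pair of values. All 8 Schwann cell markers were detected in every group. Macrophage markers summed to between 2.58 and 13.3 FPKM in purified cells and to between 135.1 and 609.6 FPKM in whole nerve. In replicate 2 of the Schwann cells at day 3 they summed to 13.3 FPKM, against 2.58 in replicate 1, and the neutrophil, mast and T cell markers to 38.5 against 10.1 FPKM. Immediate-early genes, which dissociation is known to induce, summed to between 4883 and 5532 FPKM in Schwann cells of uncrushed nerves, to between 1457 and 1870 FPKM in those of crushed nerves, and to between 74.1 and 279.6 FPKM in whole nerve.

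Btc, Areg, Ereg and Epgn, which encodes epigen, follow one another on rat chromosome 14 with no other protein-coding gene between them in the RefSeq records (assembly GRCr8). Of these neighbours, Btc and Areg rose in Schwann cells after the crush, while Ereg and Epgn stayed at a few counts. The 250 bases before the start of both risen genes are shown 5′ to 3′ because they are the promoters of the ligands that rose. Btc lies on the plus strand, with the window at chr14:16992418-16992667. Areg lies on the minus strand, with the window at chr14:17265642-17265891. Capitals mark the letters TGACGTCA, a cyclic AMP response element (CRE), and TATAAA, which is known as the TATA box.
Btc: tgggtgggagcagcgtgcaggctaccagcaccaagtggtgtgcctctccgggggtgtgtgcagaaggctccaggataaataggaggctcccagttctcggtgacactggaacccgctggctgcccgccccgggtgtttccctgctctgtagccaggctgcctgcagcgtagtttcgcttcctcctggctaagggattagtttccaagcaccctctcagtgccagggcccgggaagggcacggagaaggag
Areg: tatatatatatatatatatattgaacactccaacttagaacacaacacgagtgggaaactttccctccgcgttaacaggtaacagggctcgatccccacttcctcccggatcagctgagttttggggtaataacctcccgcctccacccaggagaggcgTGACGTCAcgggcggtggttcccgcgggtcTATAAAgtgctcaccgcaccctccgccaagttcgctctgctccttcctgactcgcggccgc
The CRE begins 91 bases before the start of Areg and the TATA box 61 bases before it. Searched on both strands, TGACGTCA stood in 1.59% of the 33469 windows of this length in the table and TATAAA in 12.9%. The window of Btc held neither, and no member's window held the AP-1 letters TGANTCA, which 6.34% of all windows hold, or the STAT letters TTCNNNGAA, which 7.67% hold. The TEAD letters GGAATG stood in the window of Erbb2 and in 12.1% of all windows. Windows were listed for 7 of the 10 members, not for Nrg1, Erbb3 and Ereg. These are matches of letters and were not tested for binding.

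Btc, which encodes betacellulin, rose in Schwann cells by more than any other member. Schwann cells held 6.25 and 3.93 FPKM of Btc before the crush, 89.3 and 98.6 FPKM at day 3, 59.5 and 45.5 FPKM at day 5, and 24.2 and 36.1 FPKM at day 7. All 6 libraries of crushed nerves lay above both uncrushed ones, with the peak at day 3. Relative to uncrushed nerves the log2 fold change was 4.23 ± 0.28 at day 3 (edgeR, adjusted p = 1.56e-06), 3.30 ± 0.28 at day 5 (adjusted p = 9.31e-06) and 2.48 ± 0.29 at day 7 (adjusted p = 1.03e-04). The fall from day 3 to day 7 was -1.75 ± 0.22 (edgeR, adjusted p = 6.31e-04). The study picked Btc from these libraries among strongly changed transcripts for follow-up, so its rise here is not independent evidence of that choice. It then measured Btc by qRT-PCR in purified Schwann cells and reported that the genes so measured matched its sequencing.

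In whole nerve, Btc counted 2 reads in each uncrushed library, and its level was 0.30 and 0.45 FPKM. At day 3 it was 23.1 and 24.6 FPKM, at day 5 12.9 and 18.9 FPKM, and at day 7 10.7 and 12.3 FPKM. The groups did not overlap. In such bulk samples the number of cells of a type and the RNA per cell cannot be told apart. Since the uncrushed group held 4 counts in all, the size of the rise is given as a ratio of pooled counts per library total with an exact 95% interval that covers counting error only. It was 66.4 at day 3 (25.7 to 245.1), 43.8 at day 5 (16.9 to 162.3) and 31.7 at day 7 (12.1 to 118.2). No p is given for it, since Btc passed the filter on low counts there through the crushed libraries, where it was high.

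Areg, which encodes amphiregulin, was found in Schwann cells at 1.49 and 1.07 FPKM before the crush, 7.35 and 7.07 FPKM at day 3, 5.05 and 6.64 FPKM at day 5, and 3.35 and 7.31 FPKM at day 7. All crushed libraries lay above the uncrushed ones. In edgeR its log2 fold change was 2.53 ± 0.39 at day 3 (edgeR, adjusted p = 4.64e-04), 2.14 ± 0.39 at day 5 (adjusted p = 0.00139) and 1.98 ± 0.40 at day 7 (adjusted p = 0.00294). At day 7 the 2 libraries lay far apart: without replicate 1 the change was 2.46 and without replicate 2 it was 1.35, both called.

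Whole nerve held next to no Areg. Its 8 libraries counted 3 reads together, 1 at day 3 and 2 at day 5, and Areg passed no filter on low counts there. Uncrushed Schwann cells held 33 counts against 0 in uncrushed whole nerve, which is at least 10.8-fold higher against a floor of 3 counts over the group. At day 7 the bound was 42.4-fold. At day 3 the pooled ratio was 265.2 (95% interval 47.2 to 10510), from 297 counts against 1, and at day 5 it was 90.9 (24.8 to 755.7). The immediate-early genes were likewise higher in the dissociated cells than in the undissociated nerve, in 12 of 12 before the crush and 11 of 12 at day 3, and their part in the level of Areg was not tested. Within Schwann cells both moved in opposite directions, Areg upward after the crush and the immediate-early genes downward, with 10 of 12 lower at day 3.

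Ereg, which encodes epiregulin, had 8 counts in all: 5 in replicate 2 of the Schwann cells at day 3, and 2 and 1 at day 5. It passed no filter and was not tested. No count fell in the 8 whole nerve libraries together, where a count of 0 allows up to 0.0241 CPM, counts scaled to the library total.

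Hbegf, which encodes HB-EGF, was the most abundant ligand of uncrushed Schwann cells per length and fell after the crush. By expected count Tgfa led there, with 56.9% ± 1.1 of the ligand reads against 38.9% ± 1.6 for Hbegf (SD, n = 2). It stood at 53.0 and 49.5 FPKM before the crush, 35.3 and 28.6 FPKM at day 3, 32.4 and 33.8 FPKM at day 5, and 31.4 and 35.8 FPKM at day 7. No crushed library reached the uncrushed ones, and days 3, 5 and 7 overlapped. The log2 fold change was -0.64 ± 0.12 at day 3 (edgeR, adjusted p = 0.00157), -0.66 ± 0.12 at day 5 (adjusted p = 0.00127) and -0.66 ± 0.12 at day 7 (adjusted p = 0.00169). The immediate-early genes fell in the same libraries, with 10, 11 and 11 of 12 called lower at days 3, 5 and 7, and their part in the fall was not tested.

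Whole nerve gave another course for Hbegf. Its level was 9.26 and 9.05 FPKM before the crush, 3.02 and 4.49 FPKM at day 3, 7.23 and 7.55 FPKM at day 5, and 10.4 and 8.12 FPKM at day 7, so that in FPKM day 7 overlapped the uncrushed level. The immediate-early genes went the other way from Hbegf here, with 7 of 12 higher and 0 lower at day 3. Its log2 fold change was -1.69 ± 0.21 at day 3 (edgeR, adjusted p = 9.65e-05) and -0.72 ± 0.20 at day 5 (adjusted p = 0.0179). At day 7 it was -0.39 ± 0.20 and was not called (edgeR, adjusted p = 0.171), while day 7 stood 1.297 ± 0.21 above day 3 (adjusted p = 0.00173). The call at day 5 was lost without uncrushed replicate 1 (-0.70, edgeR adjusted p = 0.0637), without day 5 replicate 1 (-0.67, adjusted p = 0.0915) and without day 5 replicate 2 (-0.75, adjusted p = 0.0685).

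Tgfa, which encodes TGF-alpha, fell in both tissues but later in Schwann cells. Schwann cells held 27.2 and 23.4 FPKM before the crush, 24.1 and 22.6 FPKM at day 3, 13.9 and 12.8 FPKM at day 5, and 10.8 and 12.3 FPKM at day 7. Day 3 overlapped the uncrushed level, and its log2 fold change was -0.06 ± 0.11 (edgeR, adjusted p = 0.653). The fall was -0.94 ± 0.11 at day 5 (edgeR, adjusted p = 9.14e-05) and -1.17 ± 0.11 at day 7 (adjusted p = 3.31e-05). From day 3 to day 5 it was -0.88 ± 0.11 (adjusted p = 0.0017).

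Whole nerve had lost most of its Tgfa by day 3. The level went from 28.9 and 32.4 FPKM to 8.90 and 6.64 FPKM at day 3, 4.31 and 5.52 FPKM at day 5, and 3.75 and 4.82 FPKM at day 7. On the log2 scale the fold change was -2.39 ± 0.17, -3.04 ± 0.18 and -3.25 ± 0.18 in that order (edgeR, adjusted p = 1.86e-06, 5.78e-07 and 7.94e-07). Markers of cell types moved in whole nerve at the same time: 5 of 8 Schwann cell markers were called lower at day 3, with their sum at 2171 and 2069 FPKM against 12618 and 15721 FPKM before the crush, and so were 3 of 5 markers of skeletal muscle and fat. In purified Schwann cells 5 of 8 Schwann cell markers were called lower at day 3. The part of these changes in the fall of Tgfa was not tested.

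Nrg1 was scarce in both tissues and fell sharply by day 3. Schwann cells counted 65 and 48 reads before the crush, 1 and 10 reads at day 3, 18 and 20 reads at day 5, and 46 and 25 reads at day 7. The low point was at day 3, and every crushed library lay below both uncrushed ones. The log2 fold change was -4.03 ± 0.54 at day 3 (edgeR, adjusted p = 1.87e-04) and -1.97 ± 0.46 at day 5 (adjusted p = 0.00521). Without day 3 replicate 2 the first became -5.84, and without day 3 replicate 1 -3.47. At day 7 it was -0.90 ± 0.44 and was not called (edgeR, adjusted p = 0.117), and day 7 stood 3.13 ± 0.55 above day 3 (adjusted p = 0.00337). Over the other settings and with single libraries left out, this rise from day 3 ran from 2.558 to 4.955.

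Whole nerve counted 41 and 35 reads of Nrg1 before the crush, 6 and 12 reads at day 3, 7 and 14 reads at day 5, and 16 and 14 reads at day 7. No crushed library reached the uncrushed ones. Markers of neurons were also lower in sum after the crush: their summed FPKM went from 2.69 and 1.77 to 0.50 and 0.58 in Schwann cells at day 3, and from 11.1 and 9.69 to 4.17 and 5.66 in whole nerve, where it stood at 5.84 and 8.36 at day 7. In Schwann cells it was 0.31 and 0.41 at day 7, when Nrg1 counted 46 and 25 reads. In whole nerve 2 of the 5 that could be tested were called lower at day 3, and their part in the level of Nrg1 was not tested. Against the uncrushed group the log2 fold change was -3.07 ± 0.48, -2.61 ± 0.47 and -1.80 ± 0.45 (edgeR, adjusted p = 4.94e-04, 0.00163 and 0.0126). The call at day 7 was lost without uncrushed replicate 2 (-1.62, edgeR adjusted p = 0.0703), without day 7 replicate 1 (-1.88, adjusted p = 0.0569) and without day 7 replicate 2 (-1.69, adjusted p = 0.0742). The annotation holds 21 transcripts of Nrg1, and the mean transcript length RSEM assigned ran from 1412 to 7265 bases between libraries, so that its FPKM rests on that assignment and its types were not told apart. These counts are RNA made in the nerve or carried into it, and the axonal protein made in neurons was not measured.

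**Figure D1:**
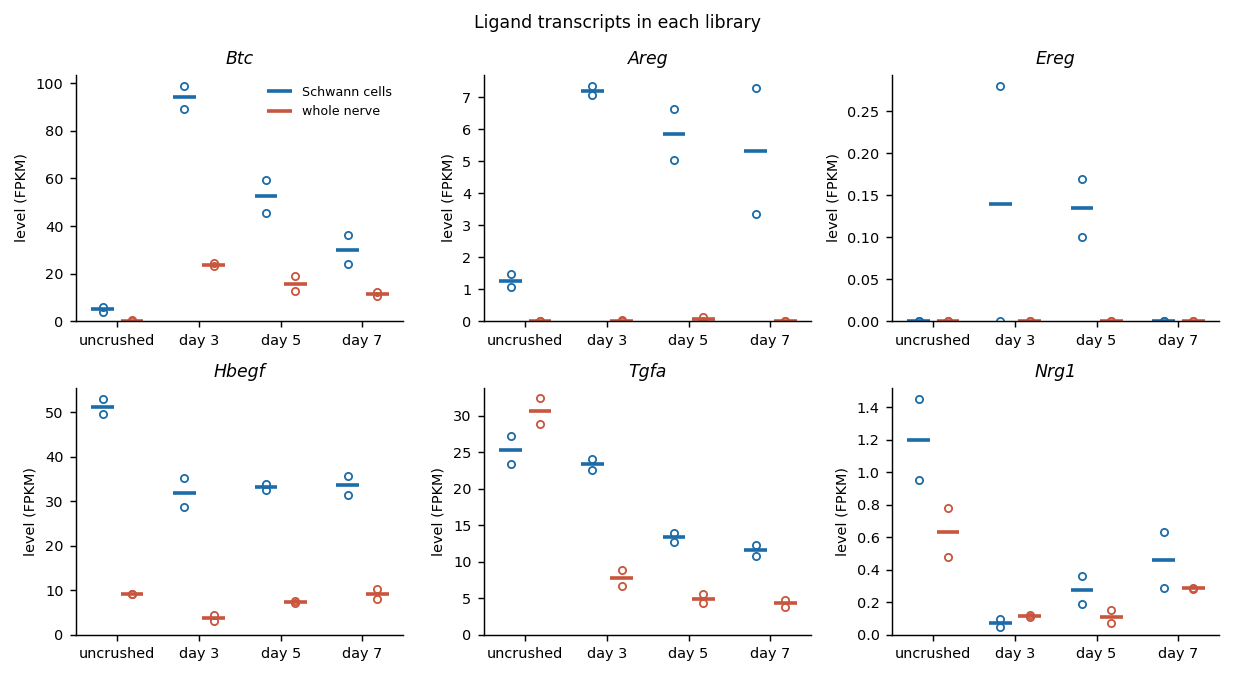
Level of each ligand gene in FPKM (linear axes that differ between panels) in Schwann cells and whole nerve by group. Circles are libraries and bars the mean of 2. Btc and Areg stand above the uncrushed level in all crushed Schwann cell libraries, and Ereg stays at 0.28 FPKM or below.

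The other 5 ligand genes of the family were all low, at or below 4.13 FPKM. Egf fell in Schwann cells from 0.49 and 0.59 FPKM to 0.16 and 0.22 FPKM at day 3, and the log2 fold change was -1.45 ± 0.49 (edgeR, adjusted p = 0.031). Nrg4 was found mainly in whole nerve, where it went from 1.74 and 0.84 FPKM before the crush to 3.09 and 4.13 FPKM at day 7, a change of 1.02 ± 0.46 that was not called (edgeR, adjusted p = 0.122). Before the crush Schwann cells held 0.20 and 0.67 FPKM of Nrg4, from 2 and 6 counts. Schwann cells counted no Nrg4 at days 3 and 7, where whole nerve was at least 22.0-fold and 22.1-fold higher. Nrg3 had 1 and 0 counts in uncrushed Schwann cells and 10 and 12 at day 7, a pooled ratio of 19.4 (95% interval 3.14 to 801.1) that covers counting error only and is given without a test, since the gene passed the filter through the libraries where it was high. Nrg2 and Epgn had at most 3 and 4 counts in any library.

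Erbb3 was by far the most abundant receptor of Schwann cells and rose after the crush in both tissues. Schwann cells held 185.8 and 165.3 FPKM before the crush, 249.9 and 232.7 FPKM at day 3, 251.3 and 250.8 FPKM at day 5, and 250.7 and 270.6 FPKM at day 7. The crushed libraries all lay above the uncrushed ones. Day 3 held the lowest of them, and the log2 difference from day 3 was -0.02 ± 0.09 at day 5 and 0.02 ± 0.09 at day 7, neither called (edgeR, adjusted p = 0.925 and 0.92). As a log2 fold change the difference was 0.52 ± 0.09, 0.50 ± 0.09 and 0.53 ± 0.09 (edgeR, adjusted p = 0.00126, 0.00155 and 0.00128). In whole nerve the level went from 28.9 and 34.4 FPKM to 71.7 and 70.7 FPKM at day 3, 86.0 and 103.5 FPKM at day 5, and 84.6 and 112.3 FPKM at day 7. There the log2 fold change was 0.76 ± 0.14, 1.18 ± 0.14 and 1.23 ± 0.14 (edgeR, adjusted p = 0.00149, 1.12e-04 and 1.04e-04). The ratios of FPKM in whole nerve are larger than these; FPKM is scaled to all fragments and edgeR by TMM, and the source of the gap was not tested.

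Erbb2, the partner of ErbB3, changed little in Schwann cells. It stood at 7.37 and 7.77 FPKM before the crush, 8.87 and 7.68 FPKM at day 3, 9.26 and 9.82 FPKM at day 5, and 9.94 FPKM in both libraries at day 7. Day 3 overlapped the uncrushed level, with a log2 fold change of 0.18 ± 0.11 (edgeR, adjusted p = 0.204). At day 5 it was 0.31 ± 0.11 (edgeR, adjusted p = 0.0394) and at day 7 0.35 ± 0.11 (adjusted p = 0.0267). The call at day 5 was lost under all 7 other settings of test, normalization, filter, block and samples. It was lost too without any one of the uncrushed, day 3 or day 5 libraries, with changes of 0.24 to 0.35 and adjusted p up to 0.152. The call at day 7 was lost with DESeq2 (0.30, adjusted p = 0.126), with its size factors (0.30, edgeR adjusted p = 0.054) and with all 16 libraries in the fit (0.33, adjusted p = 0.065). It was also lost without uncrushed replicate 1 (0.29), day 7 replicate 1 (0.36) or day 7 replicate 2 (0.37).

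In whole nerve Erbb2 dipped at day 3. Its level was 2.87 and 3.23 FPKM before the crush, 2.57 and 2.08 FPKM at day 3, 3.31 and 4.01 FPKM at day 5, and 3.54 and 4.23 FPKM at day 7. The log2 fold change was -0.80 ± 0.18 at day 3 (edgeR, adjusted p = 0.00441), and without day 3 replicate 2 it was -0.63 and not called (adjusted p = 0.0508). At days 5 and 7 it was -0.13 ± 0.18 and -0.05 ± 0.18 (edgeR, adjusted p = 0.585 and 0.853). In FPKM, by contrast, every library of days 5 and 7 lay above both uncrushed ones. The size of the dip at day 3 thus depends on the scaling, and the source of this gap was not tested.

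Erbb4, a receptor for neuregulins, betacellulin and HB-EGF, was low and fell in whole nerve. There it went from 2.05 and 2.94 FPKM to 0.45 and 0.73 FPKM at day 3, 0.36 and 0.48 FPKM at day 5, and 0.44 and 0.27 FPKM at day 7, with all crushed libraries below the uncrushed ones. Measured by edgeR the log2 fold change was -2.48 ± 0.33, -2.96 ± 0.34 and -3.20 ± 0.36 (edgeR, adjusted p = 1.48e-04, 8.33e-05 and 8.12e-05). In Schwann cells it went from 1.69 and 1.02 FPKM to 0.97 and 0.88 FPKM at day 3, 0.93 and 0.83 FPKM at day 5, and 0.52 and 0.71 FPKM at day 7. The changes of -0.50 ± 0.29 at day 3 and -0.65 ± 0.30 at day 5 were not called (edgeR, adjusted p = 0.176 and 0.0917), although without uncrushed replicate 2 that at day 5 was -0.96 (adjusted p = 0.0326). The fall at day 7 was -1.19 ± 0.31 (edgeR, adjusted p = 0.0112). Its call was lost without uncrushed replicate 1 (-0.81, edgeR adjusted p = 0.103) and without day 7 replicate 1 (-0.96, adjusted p = 0.083). As with Tgfa, Schwann cell markers summed to less in whole nerve at day 3 (2171 and 2069 FPKM) than before the crush (12618 and 15721 FPKM), and their part in the fall of Erbb4 was not tested.

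Egfr, the receptor of most of these ligands, was a whole nerve transcript. Whole nerve held between 17.1 and 23.2 FPKM in all 8 libraries, with uncrushed and crushed libraries overlapping. Relative to uncrushed nerves the log2 fold change there was -0.24 ± 0.12, -0.37 ± 0.12 and -0.25 ± 0.12 (edgeR, adjusted p = 0.139, 0.0354 and 0.158), while the mean FPKM of every crushed group was above that of the uncrushed group. The call at day 5 was lost with all 16 libraries in one fit (-0.27, edgeR adjusted p = 0.269) and without uncrushed replicate 2 (-0.19), day 3 replicate 1 (-0.36), day 3 replicate 2 (-0.36), day 5 replicate 1 (-0.24) or day 7 replicate 1 (-0.33). Without uncrushed replicate 1, day 3 (-0.39, edgeR adjusted p = 0.0283) and day 7 (-0.40, adjusted p = 0.0366) were called as well.

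Purified Schwann cells held 0.34 FPKM of Egfr or less. They counted 51 and 33 reads before the crush, 16 and 77 reads at day 3, 11 and 10 reads at day 5, and 22 and 11 reads at day 7. Scaled to the library total, Egfr stood at 3.63 and 2.62 CPM before the crush and 1.01 and 2.79 CPM at day 3. Replicate 2 of day 3 was the deepest library of all, at 27562637 expected counts. The 77 counts lie in the library of day 3 that also held more macrophage, neutrophil, mast and T cell and endothelial markers (4.16 against 1.02 FPKM for the last), whose part in them was not tested. Fibroblast markers summed to 581.0 and 328.0 FPKM in the uncrushed Schwann cell libraries, the first of which also counted more Egfr, to between 244.7 and 380.5 FPKM in the crushed ones, and to between 4132 and 6386 FPKM in whole nerve. Their part in the Egfr counts was not tested. The log2 fold change in Schwann cells was -0.61 ± 0.47 at day 3 (edgeR, adjusted p = 0.302) and, without replicate 2, -1.57 (adjusted p = 0.0462). It was -2.39 ± 0.54 at day 5 (edgeR, adjusted p = 0.00431) and -1.57 ± 0.51 at day 7 (adjusted p = 0.03). The call at day 7 was lost without uncrushed replicate 1 (-1.34), day 7 replicate 1 (-1.83) or day 7 replicate 2 (-1.36).

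**Figure D2:**
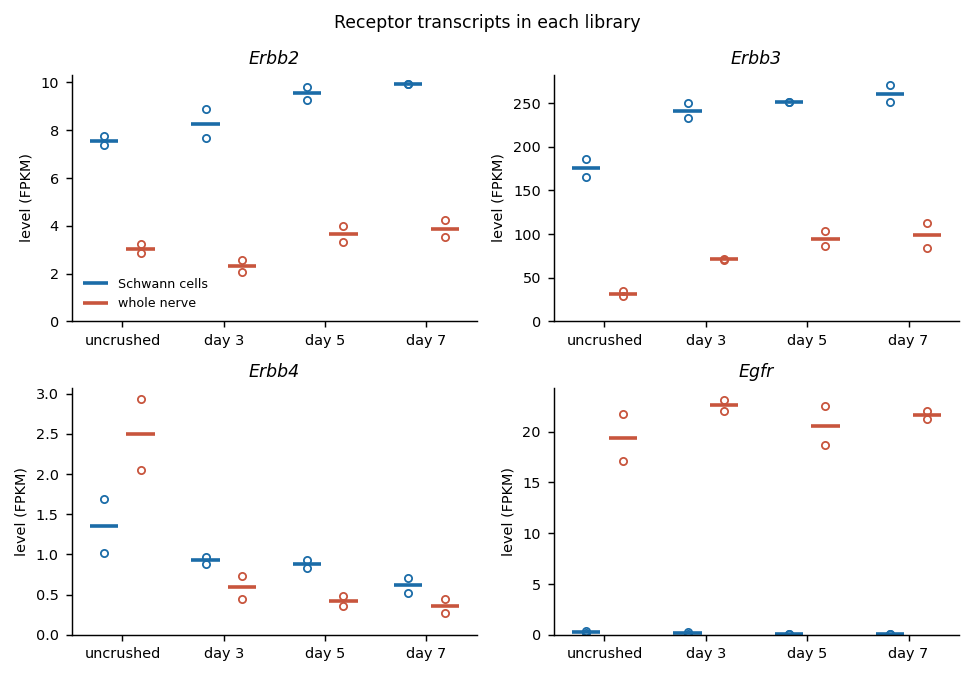
Level of each receptor gene in FPKM (linear axes that differ between panels) by group, drawn as for the ligands. Erbb3 reaches 270.6 FPKM in Schwann cells, whereas Egfr stays at or below 0.34 FPKM there and between 17.1 and 23.2 FPKM in whole nerve.

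Counted over the members, the 9 that could be tested in Schwann cells gave 5 calls on the first of the 3 days (3 higher, 2 lower) and 8 on each later one (4 higher, 4 lower). Ereg was the member not tested. Of all genes tested, 52.5%, 54.6% and 46.9% were called in those comparisons. In whole nerve 8 members could be tested, without Areg and Ereg, and 7, 7 and 5 were called (2 higher on each day), against 45.6%, 38.4% and 31.3% of all genes. Without Btc, which had to differ once it passed the filter, the counts were 6, 6 and 4 of 7, with 1 higher on each day. Without uncrushed replicate 1 or day 7 replicate 1 the Schwann cell count at day 7 was 5. Between days, Schwann cells gave 3 calls from day 3 to day 5 and 3 from day 3 to day 7, where 12.5% and 21% of all genes were called. The count from day 3 to day 5 was 2 at most without any one library, and 1 without day 5 replicate 2. Whole nerve gave 3 and 5, where 11.5% and 21.2% were called. The first of these was 0 without day 3 replicate 1, day 5 replicate 1 or day 5 replicate 2, and the second was 2 or 3 without any one of the day 3 or day 7 libraries. From day 5 to day 7 edgeR called none of the members in either tissue, where it called 1.95% of all genes in Schwann cells and 7.4% in whole nerve. At an unadjusted p under 0.05 the numbers were 2 in Schwann cells and 0 in whole nerve, and DESeq2 called 1 and 0.

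**Figure D3:**
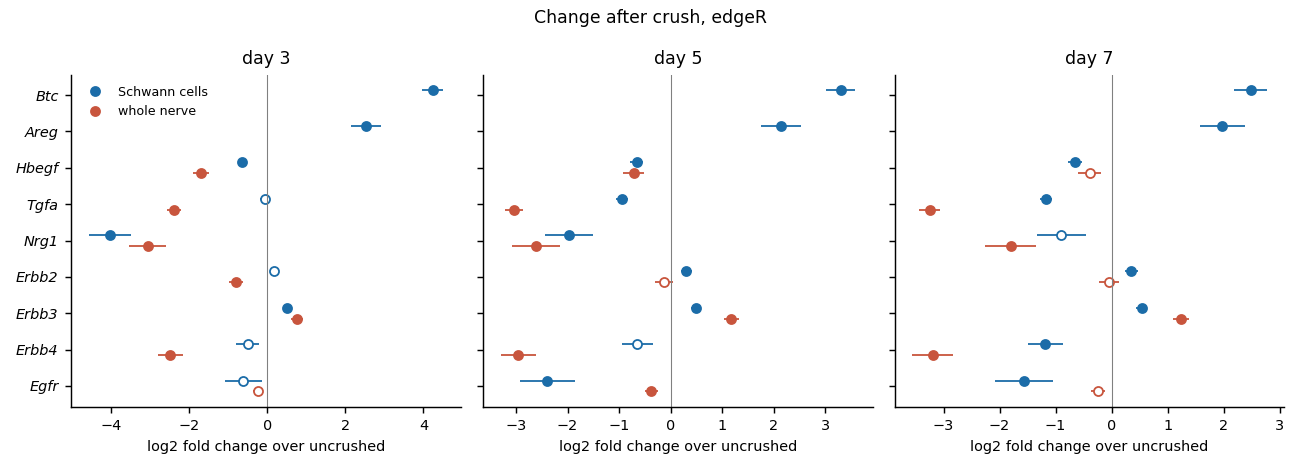
Log2 fold change over uncrushed nerves (edgeR, bars are 1 standard error) for 9 members at days 3, 5 and 7. Filled circles were called at an adjusted p under 0.05 and open ones were not. Areg and Btc are drawn for Schwann cells alone.

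The makeup of the ligand RNA changed with the crush. Per length, Hbegf made up 59.3% and 62.8% of the summed ligand FPKM of uncrushed Schwann cells, and Tgfa 30.4% and 29.7%. At day 3 Btc made up 57.2% and 62.7%, and Hbegf 22.6% and 18.2%. By day 7 Btc was back at 34.4% and 39.3%, and Hbegf stood at 44.7% and 39.0%. In whole nerve Tgfa led before the crush with 73.6% and 76.5%, and Btc led at day 3 with 65.6% and 68.6%. The ratio of Btc to Tgfa per length went from 0.20 ± 0.04 to 4.04 ± 0.47 (SD, n = 2) in Schwann cells and from 0.0121 ± 0.0025 to 3.15 ± 0.78 in whole nerve at day 3. The annotated transcript of Btc has 611 bases and that of Tgfa 4222 bases, and the lead depends on this scaling. In expected counts Btc made up 21.4% ± 2.4 (SD, n = 2) of the Schwann cell ligand reads at day 3, against 1.19% ± 0.28 before the crush, and Tgfa led with 51.2% ± 0.2.

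**Figure D4:**
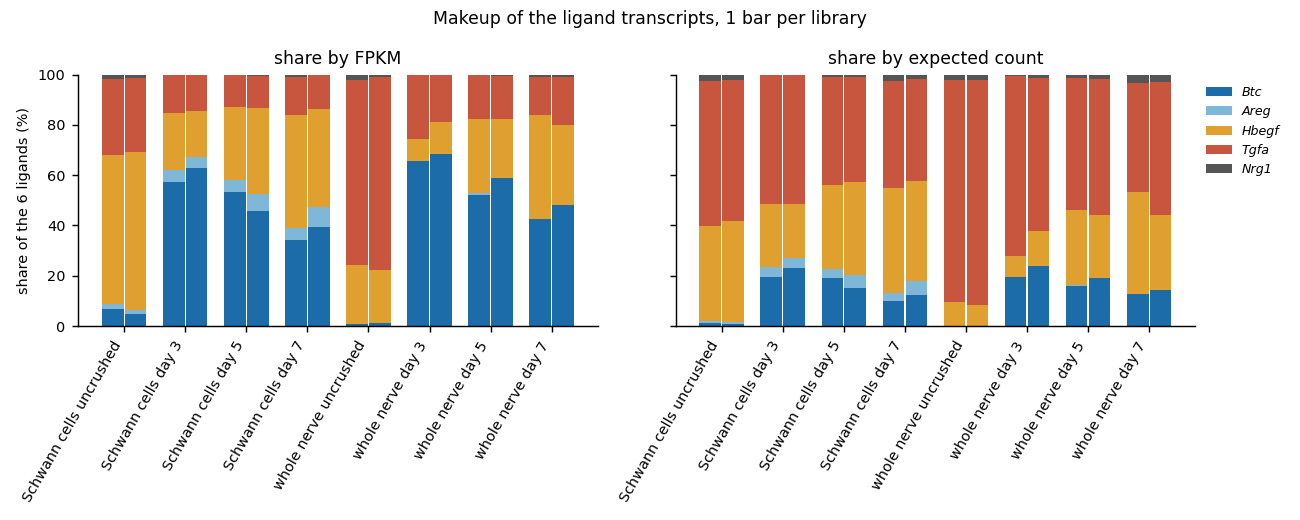
Share of the summed ligand level held by each ligand gene in percent, with 1 bar per library, by FPKM (left) and by expected count (right). Btc widens from 6.99% and 4.98% to 57.2% and 62.7% of the FPKM in Schwann cells at day 3, and less by counts; Ereg is too low to draw.

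Among the receptors, Erbb3 made up 95.2% and 94.9% of the summed FPKM in the uncrushed Schwann cell libraries and 96.3% ± 0.1 (SD, n = 2) at day 3. In uncrushed whole nerve it made up 56.0% ± 1.2, with Egfr at 34.3% ± 1.0 (in expected counts 47.6% ± 1.0 and 46.3% ± 1.0, about level), and at day 5 79.3% ± 0.1, with Egfr at 17.3% ± 0.03. The ratio of Erbb3 to Erbb2 per length was 23.2 ± 2.8 in uncrushed Schwann cells and between 26.2 and 29.2 after the crush. In whole nerve it went from 10.4 ± 0.4 to 30.9 ± 4.3 at day 3, so that crushed whole nerve came close to the Schwann cell value.

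Purified cells were then compared with whole nerve at each time, over all 16 libraries, where 9 members could be tested. Erbb3, Erbb2, Btc and Hbegf were higher in Schwann cells at every time and Egfr was lower, with the value of Btc before the crush a pooled ratio of 14.3 (95% interval 5.28 to 54.1). Immediate-early genes were also higher in the dissociated cells, at 4883 and 5532 FPKM in sum before the crush. Whole nerve then held 74.1 and 91.2 FPKM of them, and their part in the difference of Hbegf was not tested. Before the crush the log2 difference was 2.16 ± 0.13 for Erbb3 (edgeR, adjusted p = 6.43e-09), 1.01 ± 0.15 for Erbb2 (adjusted p = 3.16e-05) and 2.17 ± 0.16 for Hbegf (adjusted p = 3.60e-08). For Egfr it was -6.15 ± 0.26 before the crush (edgeR, adjusted p = 1.55e-10) and -8.30 ± 0.31 at day 5 (adjusted p = 5.18e-11). Btc stood 2.01 ± 0.23 higher in Schwann cells at day 3 (edgeR, adjusted p = 3.00e-06). Nrg1 was not called at any time, with differences from -0.85 ± 0.60 to 0.99 ± 0.46, although without Schwann cell day 3 replicate 2 it was -2.68 at day 3 (edgeR, adjusted p = 0.0304).

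The sign of the difference turned for Tgfa and Erbb4, for Erbb4 less firmly. For Tgfa the log2 difference was -0.59 ± 0.15 before the crush, lower in Schwann cells (edgeR, adjusted p = 0.00391), and 1.63 ± 0.16 at day 3 (adjusted p = 6.51e-07). The first of these depends on the scale: the TPM of Tgfa, which sets every library to one sum, was 56.6 ± 7.4 in Schwann cells and 48.3 ± 4.3 in whole nerve (SD, n = 2). For Erbb4 it was -1.18 ± 0.31 before the crush (edgeR, adjusted p = 0.00451) and 1.01 ± 0.35 at day 5 (adjusted p = 0.0261), while 0.70 ± 0.33 at day 3 and 0.72 ± 0.38 at day 7 were not called (adjusted p = 0.0852 and 0.134). The first call was lost without uncrushed Schwann cell replicate 2 (-0.88) or uncrushed whole nerve replicate 2 (-0.90). The second was lost without Schwann cell day 5 replicate 1 (0.91), Schwann cell day 5 replicate 2 (1.10) or whole nerve day 5 replicate 1 (0.83). Areg passed the filter here through the Schwann cell libraries alone, so its calls add nothing to the bounds given above. With Areg among them, 8, 7, 8 and 7 members were called before the crush and at days 3, 5 and 7, against 64.4%, 57.3%, 51.7% and 51% of all genes. Without Areg they were 7, 6, 7 and 6 of 8.

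**Figure D5:**
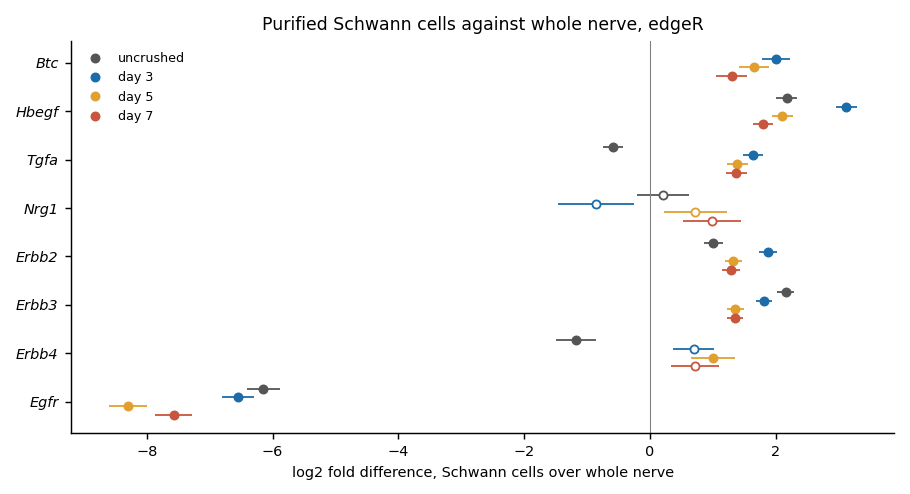
Log2 fold difference between Schwann cells and whole nerve (edgeR, bars are 1 standard error) for 8 members, without Areg and Ereg, at the 4 times, with Btc drawn after the crush alone. Filled circles were called. Erbb2, Erbb3, Btc and Hbegf lie right of 0 wherever drawn, Egfr lies beyond -6, and Tgfa and Erbb4 lie left of 0 before the crush and right of it after, with Erbb4 open at days 3 and 7.

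Whether the crush moved a gene differently in the tissues was tested on the difference itself, and 4, 4 and 5 of 9 members were called at days 3, 5 and 7, against 26%, 27.5% and 26% of all genes. Without Areg and Btc, which are at a few counts in whole nerve groups, the counts were 4, 4 and 4 of 7. The count of 5 at day 7 was 3 without uncrushed replicate 1 of either tissue, Schwann cell day 7 replicate 1 or whole nerve day 7 replicate 2. Tgfa fell less in Schwann cells than in the nerve: the log2 fold change in Schwann cells minus that in whole nerve was 2.22 ± 0.22, 1.98 ± 0.22 and 1.96 ± 0.23 (edgeR, adjusted p = 4.63e-06, 1.76e-05 and 2.39e-05). For Erbb4 the difference was 1.87 ± 0.45, 2.19 ± 0.47 and 1.89 ± 0.49 (edgeR, adjusted p = 0.00719, 0.00312 and 0.0113), and that at day 7 was 1.58 and not called without whole nerve day 7 replicate 2 (adjusted p = 0.0563). Erbb3 rose less in Schwann cells at days 5 and 7, with differences of -0.80 ± 0.18 and -0.81 ± 0.18 (edgeR, adjusted p = 0.0045 and 0.00449), while that at day 3 was -0.35 ± 0.18 and not called (adjusted p = 0.183). For Hbegf and Erbb2 the difference at day 3 was 0.95 ± 0.23 and 0.87 ± 0.20 (edgeR, adjusted p = 0.00708 and 0.00575). At day 7 it was -0.38 ± 0.22 and 0.29 ± 0.20 and was not called (edgeR, adjusted p = 0.242 and 0.329), and the days were not tested against each other. Whole nerve also changed in markers of other cells: macrophage markers went from 150.1 and 135.1 FPKM to 592.3 and 609.6 FPKM at day 3. The same test was called for 11 of the 12 immediate-early genes at day 3, all with the lower value on the Schwann cell side. The part of either in these differences was not tested.

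Around the members, the 35 adaptor and kinase genes below the receptors split in Schwann cells at day 3 into 16 higher and 6 lower, with a median log2 fold change of 0.32 against 0.0034 over all genes tested, of which 26.9% were higher and 25.7% lower. At days 5 and 7 Schwann cells gave 13 higher and 9 lower, and 9 higher and 6 lower, where 54.6% and 46.9% of all genes were called. Their medians were then 0.12 and 0.14, against 0.058 and 0.061 over all genes tested. In whole nerve at day 3 they gave 7 higher and 10 lower, with a median of 0.011 against 0.0029 over all genes tested, of which 45.6% were called. Gab2, a docking protein, rose in Schwann cells by 1.99 ± 0.14 and Ptpn11, the phosphatase SHP2, by 1.14 ± 0.13 (edgeR, adjusted p = 2.75e-06 and 5.60e-05). Pik3cb and Pik3r1, a catalytic and a regulatory subunit of PI 3-kinase, fell there by 1.65 and 1.10 (edgeR, adjusted p = 0.0013 and 7.19e-06).

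Of the 10 genes that restrain ErbB receptors or move them through the cell, 3 were higher and 4 lower in Schwann cells at day 3, against 2 higher and 5 lower at day 5 and 2 higher and 3 lower at day 7, where 52.5%, 54.6% and 46.9% of all genes were called. Errfi1, an inhibitor of the EGFR and ErbB2 kinases, fell by 1.68 ± 0.14 (edgeR, adjusted p = 8.19e-06) and stayed lower at days 5 and 7 by 1.75 and 1.76. It fell in whole nerve too, by 1.12 ± 0.14 at day 3 (edgeR, adjusted p = 9.29e-05). Lrig3 fell by 1.13 ± 0.17 in Schwann cells (edgeR, adjusted p = 3.85e-04), while Erbin, a scaffold that binds ErbB2, rose by 1.29 ± 0.10 (adjusted p = 3.95e-06) and Pa2g4, which encodes an ErbB3-binding protein, by 0.49 ± 0.11 (adjusted p = 0.0036). Of the 9 genes for cutting ligands off the membrane, 1 was higher and 4 lower in Schwann cells at day 3. They gave 3 higher and 3 lower at day 5, and 4 higher and 3 lower at day 7. Of all genes tested 52.5%, 54.6% and 46.9% were called on these days, and the count at day 3 is close to that share. Adam19 and Bace1, proteases known to cut neuregulin 1, fell by 0.95 ± 0.12 and 0.80 ± 0.15 (edgeR, adjusted p = 1.43e-04 and 0.00188), Rhbdf2, which guides ADAM17 to the surface, fell by 0.61 ± 0.20 (adjusted p = 0.0243), and Nrdc, an activator of these proteases, rose by 0.55 ± 0.10 (adjusted p = 0.00146).

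The genes most like each member over the 16 libraries are given as a description, by Pearson's r of log2(FPKM + 1) across 12830 genes with a mean of at least 1 FPKM. The libraries share tissue and day, and likeness within a tissue was not computed. For Egfr they were Ebf2, Pdgfra, a fibroblast marker, and Tbx15 (r = 0.998 for each). For Erbb3 they were Zfp516, Pcdh7 and Ptprz1 (0.995 to 0.987), and for Erbb2 Cnp, a myelin enzyme, Dlg4 and Sema3b (0.989 to 0.987). For Btc they were Myo10, Ppp2r1b and Tmem123 (0.985 to 0.984), for Areg Dag1, LOC103693389 and Wiz (0.977 to 0.966), and for Hbegf Stx16, Ccnt2 and Ptpn21 (0.974 to 0.972). Tgfa followed Zfp180, Nfasc and Cryab less closely (0.916 to 0.903), Nrg1 followed Arhgef10, Cfap100 and Enoph1 (0.955 to 0.945), and Erbb4 followed Sptlc2, Cntf and Gatm (0.950 to 0.945).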

How the data were processed

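Rat RNA was amplified by the authors without molecular identifiers, sequenced, aligned with STAR to Rnor_6.0 and counted with RSEM (strand of counting not given in the sources used here). The authors deposited expected counts of 31038 genes per sample, unfiltered. The deposited FPKM was made by the authors with RSEM, per effective length and fragments of the library. TPM values, also deposited, come from the same step and share one sum per library. A deposited count matrix held the same expected counts (largest difference 0). A deposited table of gene modules, with 8 columns of per-sample values, was not used.

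Counts were rounded and tested with edgeR 4.0.16 in R 4.3.3 (TMM, filterByExpr, quasi-likelihood test, Benjamini-Hochberg) within each tissue, and over all 16 libraries for tissue differences. DESeq2 1.42.0 was an alternative, with other scalings, filters, a replicate block, single libraries left out, TPM levels and count shares. The fits were tested on simulated data. Named were all members, every other ligand, and of the 3 other pathway lists the 2 highest and 2 lowest log2 fold changes among those called in Schwann cells at day 3 (in the ligand shedding list 1 was higher, so the second highest is a fall), plus the 3 genes most like each member. The 10 genes and the lists were chosen with earlier results of these data known. Exact intervals and floors of 3 counts cover counting error only. With 2 libraries against 2, an exact permutation test could not pass the threshold and was not used. Of 137 listed genes, 2 symbols were not in the tables. Promoters came from the RefSeq table of GRCr8, which is not the build of the counts.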

Additional observations from a re-analysis of the deposited data

Results flagged for a closer look

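The change after the crush differed between Schwann cells and whole nerve, by edgeR's test of the difference itself, for these genes. Values are the log2 fold change in Schwann cells minus that in whole nerve. At day 3 it was 2.22 for Tgfa, 1.87 for Erbb4, 0.95 for Hbegf and 0.87 for Erbb2. At day 5 it was 1.98 for Tgfa, 2.19 for Erbb4, -2.15 for Egfr and -0.80 for Erbb3. At day 7 it was 1.96 for Tgfa, 1.89 for Erbb4, -2.16 for Btc, -1.43 for Egfr and -0.81 for Erbb3.

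The value of Btc rests on 4 counts in uncrushed whole nerve, and the gene passed the filter through the groups where it was high, so nothing is read from its call. Those of Egfr rest on 10 and 11 counts at day 5 and on 22 and 11 at day 7 in Schwann cells. The call of Egfr at day 7 was lost without either uncrushed replicate 1 (-1.18 without that of Schwann cells, -1.28 without that of whole nerve), Schwann cell day 7 replicate 1 (-1.72), Schwann cell day 7 replicate 2 (-1.24) or whole nerve day 7 replicate 1 (-1.42). At day 3 the difference for Egfr was -0.40 and not called (edgeR, adjusted p = 0.477), and it was -1.45 and called without Schwann cell day 3 replicate 2 (adjusted p = 0.0128).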

How the results depend on the processing

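Of 125 log2 fold changes followed, 123 kept their direction and their side of the threshold with DESeq2, with its size factors in edgeR, with upper quartile scaling and without a filter on low counts. With the replicate block 123 did so as well: Erbb2 in Schwann cells at day 5 (0.31, edgeR adjusted p = 0.055) and Nrg1 from day 3 to day 5 (2.07, adjusted p = 0.0663) lost their calls. Deviations of same-numbered libraries correlated between -0.038 and 0.0587 among Schwann cell groups, between -0.0403 and 0.0758 among whole nerve groups and between -0.0199 and 0.00248 across the tissues. With 2 libraries per group these values cannot exclude shared animals or days, and the labels do not give them. With at least 10 counts in every library 94 of 95 values that could be computed kept direction and side of the threshold, and with all 16 libraries in one fit 61 of 65. Leaving out single libraries kept 1395 values, lost 71 calls, gained 9 and turned 5 directions.

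Turned directions were all in changes that were not called. Hbegf at day 5 (Schwann cells minus whole nerve) was 0.0029 under upper quartile scaling. Erbb2 in whole nerve at day 7 was 0.0415 with all 16 libraries, and -0.168 to 0.0873 without single libraries; at day 5 it was -0.28 to 0.0085. Tgfa in Schwann cells at day 3 was -0.17 to 0.0208, and the tissue difference of Egfr at day 3 was -1.45 to 0.0329. The cause was not tested.

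From day 5 to day 7 in Schwann cells, 291 genes were called in all; DESeq2 called 512, no filter 1048, the replicate block 179 and all 16 libraries 472, and the members called were 1 with DESeq2 and 1 without a filter. In whole nerve no filter gave 2247 genes in place of 1172, and the members called at day 7 over uncrushed were 3 with at least 10 counts in every library, where fewer members could be tested. Without single libraries the members called ran from 5 to 8 (Schwann cells, day 7 over uncrushed), 1 to 2 (Schwann cells, day 3 to day 5), 0 to 4 (whole nerve, day 3 to day 5), 2 to 5 (whole nerve, day 3 to day 7) and 3 to 5 (tissue difference, day 7). All genes called ran from 541 to 2333, 1533 to 3643 and 31 to 571 in Schwann cells (day 3 to day 5, day 3 to day 7, day 5 to day 7), and from 510 to 1973, 1635 to 3571 and 323 to 1314 in whole nerve.

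Upper quartile scaling moved the median of all genes by 0.14 in the tissue comparison at day 5 and by 0.10 at day 7. TPM is FPKM times a constant per library, so it moves all levels of a library alike. Expected counts moved 29 of 48 ligand shares by more than 1 SD. With 2 libraries per group and no molecular identifiers, low genes such as Nrg1, Areg, Ereg and Schwann cell Egfr are limited by counts.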
